A study of Mus musculus with 62 samples.

Results

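Single cells of the mouse pancreatic cancer line KPC1199-EGFP were ranked by how strongly they carried transcripts of 6 genes of early S phase, and the 12 cells at the top of the ranking were compared with the 12 at the bottom. The score was the mean log2(CPM + 1) of Ccne2, Cdc6, Mcm5, Mcm6, Dtl and Uhrf1, where CPM is a gene's counts per 1e6 counts of all genes in that library. It was computed in the 50 of 62 libraries whose synthetic spike-in RNA (ERCC) made up under 20% of all counts, so the 24 cells described here are the ends of a ranking of 50. The members were chosen by the measured levels of these 6 genes. These genes set the ranking and are therefore described without a test, and the results concern the other genes. Each library came from 1 cell, and all 62 came from 1 culture, so the cells are not replicates of a condition and no p-value was computed.

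The cells carried EGFP on a C57BL\6 background, grew untreated in 2 dimensions in DMEM with serum and antibiotics, and were at passage 9 when harvested. After trypsinisation they were captured and their cDNA amplified on a Fluidigm C1 chip, and libraries were made by the Nextera XT method. Every high and low cell therefore shares line, passage, medium and handling. The ends were chosen by the score alone, and they were not matched for RNA content or number of detected genes, which are given below. A transcript snapshot carries no direct measure of DNA synthesis in these cells.

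A cell commits to S phase when cyclin E and its kinase partner inactivate the retinoblastoma family, which frees E2F transcription factors to switch on a large block of replication genes. In late mitosis and G1 the origin recognition complex, CDC6 and CDT1 load the MCM helicase on chromatin, a step named licensing. In S phase the helicase is activated by CDC45 and GINS, polymerases copy the DNA around the sliding clamp PCNA, and CDT1 protein is destroyed by a cullin 4 ubiquitin ligase that uses DTL as its adaptor. Genes of G2 and mitosis are switched on later, largely through CHR and CCAAT promoter elements.

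The score ran from 7.03 to 7.52 in the 12 highest cells (median 7.28), from 4.36 to 6.93 in the 26 cells between the ends (median 5.57) and from 0.03 to 4.23 in the 12 lowest (median 2.43). There was no gap at either end: the last cell taken as high scored 7.03 and the next 6.93, and the last taken as low scored 4.23 and the next 4.36. Total gene counts ran from 4.17e+06 to 1.21e+07 per high cell (median 7.44e+06) and from 2.15e+06 to 1.08e+07 per low cell (median 7.56e+06). A median of 8958.5 genes was detected per high cell (8024 to 10308) and of 8494.5 per low cell (6832 to 9933). RNA content relative to the spike-in overlapped between the ends but reached lower at the low end, with 85.6 to 255.6 gene counts per spike-in count in the high cells and 59.9 to 251.7 in the low ones. The 4 low cells from libraries 59, 19, 32 and 17, by which number single cells are named here, had under 70 gene counts per spike-in count. They are called the RNA-poor low cells here, and results that rest on them are given with and without them.

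**Figure D1:**
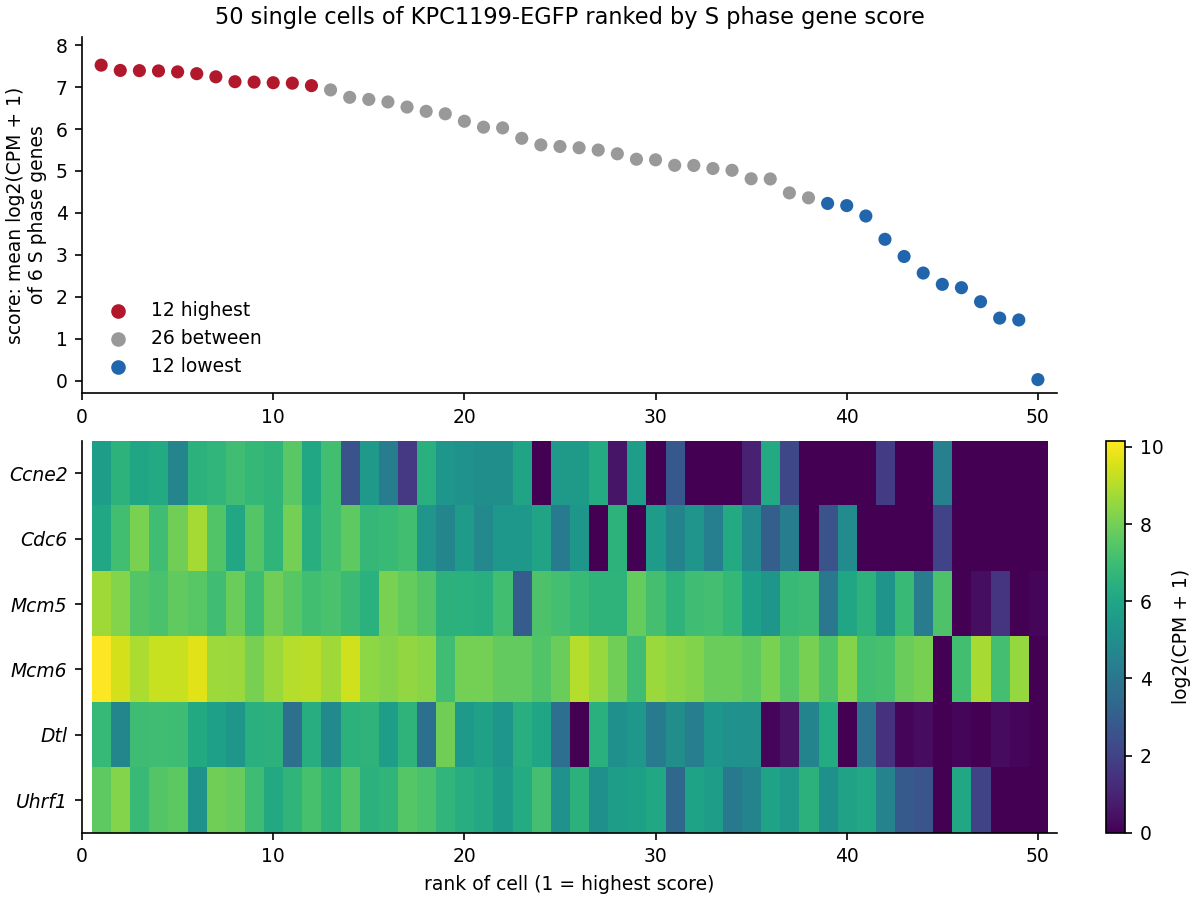
The upper panel plots the score of each of the 50 cells, in mean log2(CPM + 1), against its rank, with the 12 highest, the 26 between and the 12 lowest cells coloured apart; the lower panel shows the level of each of the 6 scored genes in the same cells as a colour, in log2(CPM + 1). The score declined without a gap from 7.52 to about 4 and then dropped to 0.03, and in the lowest cells several of the 6 genes were at 0 together.

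The label of S phase-high and S phase-low cells rests on the 6 genes of the rule, and all 6 were detected in all 12 high cells. Ccne2, a cyclin E that drives entry into S phase, ran from 4.63 to 7.56 in log2(CPM + 1) in the high cells (median 6.54) and was above 0 in 2 of 12 low cells. Cdc6, the loader of the MCM helicase, ran from 6.05 to 8.80 (median 7.26) and was above 0 in 3 low cells. The helicase subunit Mcm6 was less divided: it ran from 8.09 to 10.16 in the high cells (median 9.06) and from 0 to 8.82 in the low ones (median 7.28), where 10 of 12 had it. Mcm5, another helicase subunit, ran from 6.99 to 8.73 (median 7.52) against 0 to 7.33 (median 4.17). Dtl, the ligase adaptor, had medians of 6.38 and 0.18, and Uhrf1, which guides maintenance of DNA methylation behind the fork, had medians of 7.32 and 2.79. The pairwise Pearson r among the 6 genes over the 50 cells was 0.27 to 0.66. The epithelial keratins of the line overlapped between the ends: Krt8 was at 11.30 ± 0.47 and 11.09 ± 0.95, and Krt18 at 11.18 ± 0.50 and 11.19 ± 0.77. Krt19 (10.79 ± 0.88 and 11.43 ± 0.80) and the mesenchymal marker Vim (9.17 ± 0.66 and 9.73 ± 0.93) were higher on average in the low cells, with pair shares of 0.264 and 0.25. Here and below, values with ± are the mean and SD over 12 cells in log2(CPM + 1), the high cells first.

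The promoters of the scored genes and of 3 other replication genes that were higher in the high cells are shown because E2F is the textbook switch of this block. They are RefSeq sequences of build GRCm38.p6 from 250 bases before to 50 after the gene start, which is another build than that of the count table, and are written on the strand of the gene. Capitals mark the words TTTCCCGC, TTTGGCGC, TTTCGCGC and TTTGCCGC, searched on both strands as forms of the E2F site; overlapping words on opposite strands appear as 1 longer run. The scored genes shown are Mcm5 (chr8:75109259-75109558, plus strand), Mcm6 (chr1:128359656-128359955, minus strand) and Cdc6 (chr11:98907901-98908200, plus strand). The others are Cdt1 (chr8:122567765-122568064, plus strand), Mcm3 (chr1:20820263-20820562, minus strand) and Hells (chr19:38930740-38931039, plus strand).
Mcm5: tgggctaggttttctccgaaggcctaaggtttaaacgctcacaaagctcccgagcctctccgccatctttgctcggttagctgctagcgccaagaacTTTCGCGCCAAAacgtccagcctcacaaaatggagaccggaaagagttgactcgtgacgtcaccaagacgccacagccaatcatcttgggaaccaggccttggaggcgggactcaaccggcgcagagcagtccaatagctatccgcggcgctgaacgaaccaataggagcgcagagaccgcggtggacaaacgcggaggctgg
Mcm6: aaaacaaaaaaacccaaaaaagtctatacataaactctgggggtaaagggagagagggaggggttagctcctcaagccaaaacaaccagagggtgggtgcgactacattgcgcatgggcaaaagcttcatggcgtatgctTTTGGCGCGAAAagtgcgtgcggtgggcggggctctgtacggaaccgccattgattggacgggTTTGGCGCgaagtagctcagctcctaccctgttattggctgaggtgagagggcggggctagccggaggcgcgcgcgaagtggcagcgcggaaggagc
Cdc6: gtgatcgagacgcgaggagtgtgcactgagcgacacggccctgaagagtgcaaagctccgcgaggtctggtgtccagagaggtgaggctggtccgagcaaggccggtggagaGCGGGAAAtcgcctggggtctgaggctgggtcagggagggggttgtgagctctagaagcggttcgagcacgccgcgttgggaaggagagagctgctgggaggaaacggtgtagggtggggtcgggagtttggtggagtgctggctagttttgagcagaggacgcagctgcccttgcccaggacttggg
Cdt1: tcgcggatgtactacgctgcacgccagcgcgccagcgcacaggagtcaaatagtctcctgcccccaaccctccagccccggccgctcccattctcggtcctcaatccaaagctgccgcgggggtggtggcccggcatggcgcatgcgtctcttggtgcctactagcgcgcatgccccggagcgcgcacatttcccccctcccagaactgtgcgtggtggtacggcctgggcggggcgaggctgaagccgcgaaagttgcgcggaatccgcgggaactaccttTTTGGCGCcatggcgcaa
Mcm3: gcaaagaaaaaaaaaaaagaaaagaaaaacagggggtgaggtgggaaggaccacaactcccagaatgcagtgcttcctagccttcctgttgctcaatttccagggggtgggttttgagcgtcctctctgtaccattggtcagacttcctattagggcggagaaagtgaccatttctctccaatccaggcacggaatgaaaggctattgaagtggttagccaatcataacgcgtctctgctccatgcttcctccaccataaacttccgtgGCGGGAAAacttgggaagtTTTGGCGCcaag
Hells: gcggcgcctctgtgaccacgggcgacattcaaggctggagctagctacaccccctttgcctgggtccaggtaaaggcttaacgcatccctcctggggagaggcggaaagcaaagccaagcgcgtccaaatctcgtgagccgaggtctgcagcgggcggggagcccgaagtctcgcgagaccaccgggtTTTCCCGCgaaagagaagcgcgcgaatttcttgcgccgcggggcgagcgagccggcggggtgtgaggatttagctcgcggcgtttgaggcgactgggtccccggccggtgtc
In Mcm5 the capitals are a plus-strand TTTCGCGC that starts 153 bases before the gene start and overlaps a minus-strand TTTGGCGC. Mcm6 holds such an overlapping pair and a further TTTGGCGC 47 bases before the start. Cdc6 and Hells each hold TTTCCCGC, on opposite strands, while the words of Cdt1 and Mcm3 lie in the 50 bases after the start. Of the 6 scored genes, 5 had a promoter in the table and all 5 held a word; Ccne2 and Rbbp8 are named only.

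Over the other genes the difference between the ends leaned to one side. A gene was called higher when its mean log2(CPM + 1) was at least 1 above that of the low cells and the high cell was above the low cell in at least 0.8 of all pairs of a high and a low cell, with ties counted as 0.5; the mirror rule, a pair share of at most 0.2, called a gene lower. Of 9766 genes above 0 in at least 10 of the 24 cells, 224 were called higher (2.29%) and 27 lower (0.276%). The size of the difference alone took in 1983 genes on the high side (20.3%) and 544 on the low side (5.57%), so most genes past that size overlapped too much between the ends to be called. The median difference over all tested genes was 0.19, with quartiles of -0.23 and 0.82, and 61.7% of the tested genes had a higher mean in the high cells. Without the filter, over 19106 genes, the median difference was 0. Because a level of 0 enters the mean, the difference of a gene that was off in many low cells is not the fold change of its transcript in the cells that had it. Of the genes called higher, 160 were above 0 in all 12 high cells and 37 in all 12 low cells. In 211 of the 224 and in all 27 called lower the mean of the 26 cells between lay between the ends, as it did in 4425 of all 9766 tested genes; genes called for separate ends would often do so.

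**Figure D2:**
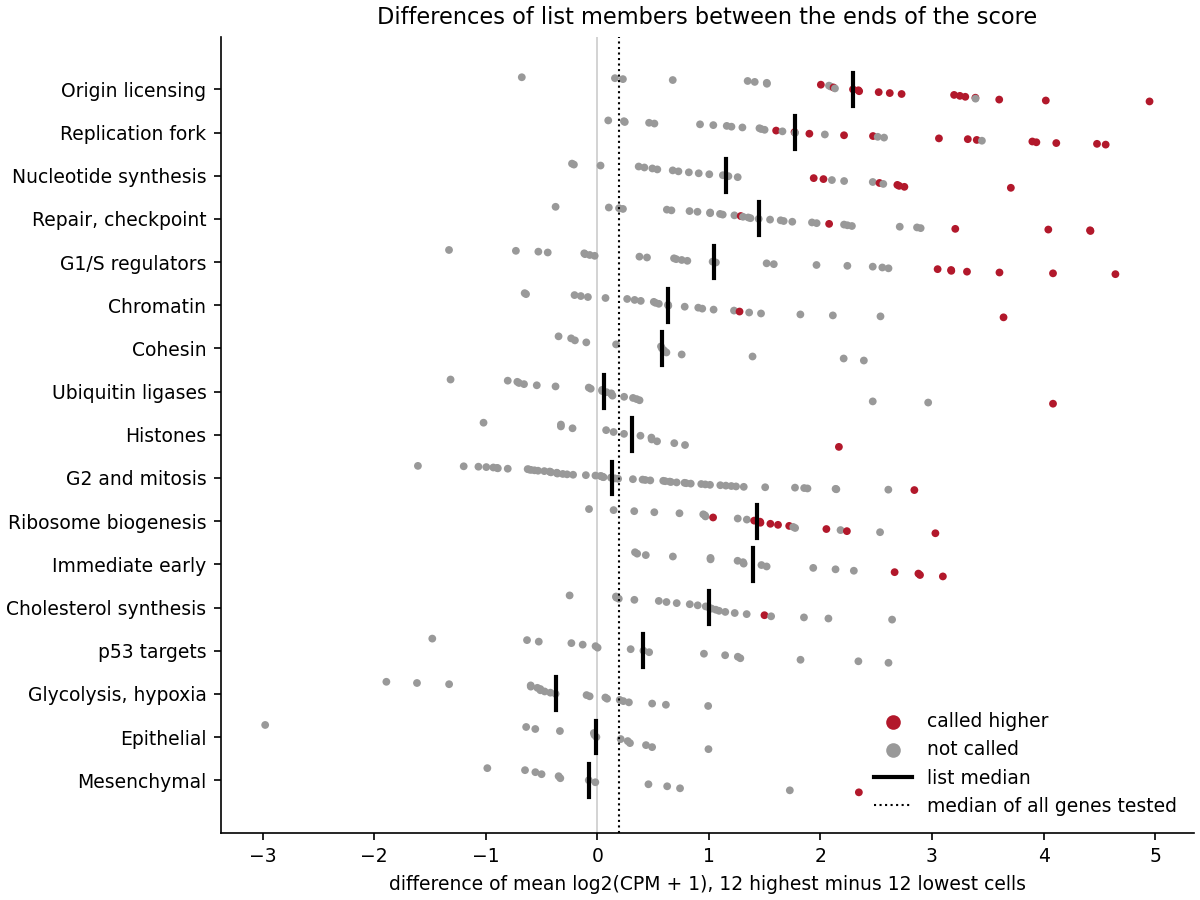
Each point is 1 tested member of a gene list, placed by its difference of mean log2(CPM + 1), the 12 highest minus the 12 lowest cells, with coloured points for genes called higher, a bar at the list median and a dotted line at the median of all tested genes, 0.19. The medians of the licensing list (2.29) and the fork list (1.77) lie to the right of the line, while that of the G2 and mitosis list (0.13) lies close to it.

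Of the genes of origin licensing and firing, 29 were measured besides the scored ones, 27 passed the filter, and 15 were called higher and none lower, against 2.29% and 0.276% of all tested genes. The median difference of the 27 was 2.29, and that of all 29 without the filter was 2.13. Since a gene detected mainly in the high cells passes the filter only by being high there, these counts describe the list and support nothing further. Cdt1, the licensing factor that brings MCM to the origin, had the largest difference of any called gene, 4.95. It ran from 5.98 to 8.15 in the high cells (median 7.06) and from 0 to 6.00 in the low cells (median 0.68), with 6 low cells at 0. The ends overlapped by a single pair of cells, with a pair share of 0.993, and the 26 cells between averaged 5.80. Its inhibitor geminin, Gmnn, was higher as well but less cleanly, at 7.88 ± 0.48 and 5.76 ± 2.89, and the highest low cell (8.62) passed the highest high cell (8.34).

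The helicase subunits that the score did not use were also higher in the high cells. Mcm3 ran from 7.69 to 8.95 in the high cells (median 8.48) and from 0 to 7.97 in the low cells (median 6.28), so nearly all high cells were above all low cells. Mcm2 had medians of 7.70 and 5.26, with 3 of 12 low cells at 0. Mcm4 (8.17 ± 0.63 and 5.83 ± 2.83) and Mcm7 (8.43 ± 0.78 and 5.91 ± 1.86) were also called, and so were Mcm10, which helps to activate the loaded helicase (difference 3.39), and the MCM-binding protein gene Mcmbp (2.29). Mcm2, Mcm3, Mcm4 and Mcm7 each had a smaller SD among the high cells than among the low cells, where low values and values near the high range stood side by side. Of the helicase cofactors, Cdc45 (3.60), Gins2 (2.00) and Gins3 (2.73) were called, while Gins1 (2.13, pair share 0.785) and Gins4 (1.52, pair share 0.701) were not. Cdc45 was not uniform among the high cells either, with 1 high cell at 0 and a pair share of 0.837.

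Origin recognition and fork protection genes were mixed. Orc6, a subunit of the origin recognition complex, ran from 7.31 to 8.63 in the high cells (median 8.28) and from 0 to 7.96 in the low ones (median 6.34) and was called. Orc5, another subunit, had the smallest difference of the list, -0.68, and was above 0 in 9 cells of each end. With the RNA-poor cells taken out of the low end it was called lower (-1.88, pair share 0.167), the 1 licensing gene so called. In the ranking without such cells it was not called (-1.43, pair share 0.253). Clspn, which encodes the checkpoint mediator claspin, was called at 5.81 ± 0.93 and 1.79 ± 2.15. Its partner gene Timeless had a difference of 3.39 but a pair share of 0.799, just short of the rule, while Tipin (2.35) and Wdhd1 (3.20) met it. The kinase genes Cdc7 (difference 2.09) and Dbf4 (1.35), whose products fire licensed origins, did not.

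**Figure D3:**
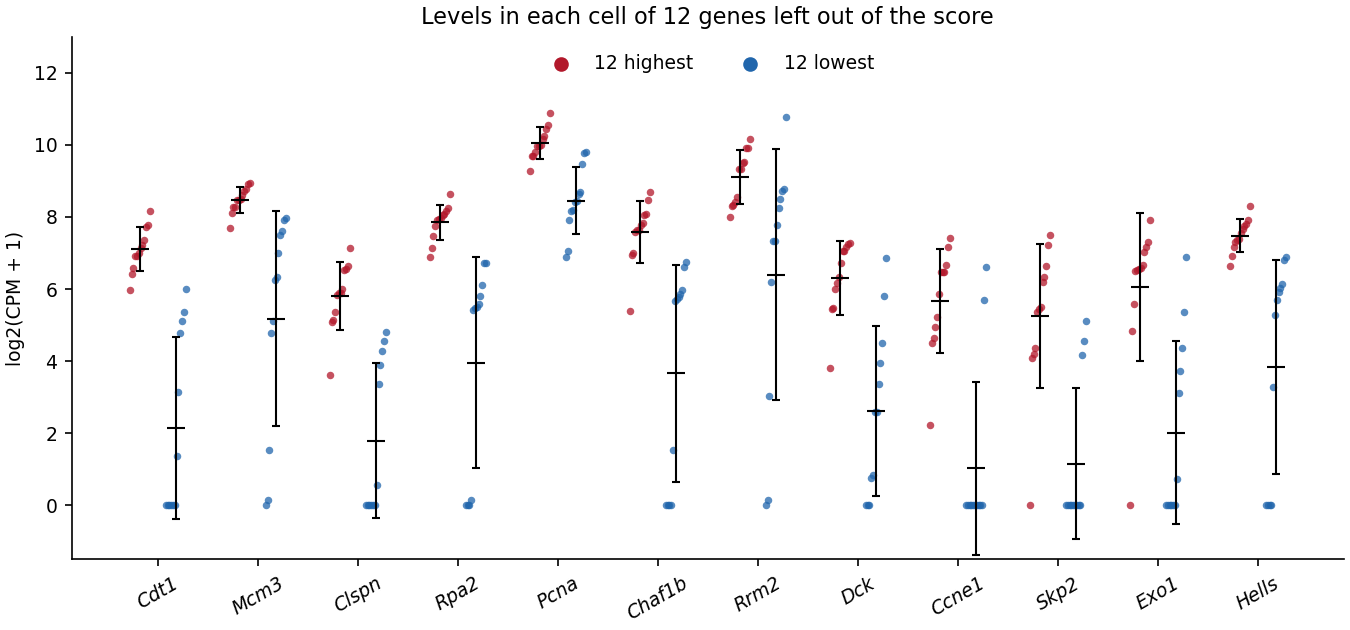
Levels in log2(CPM + 1) of 12 genes that the score did not use, 1 point per cell, with the 12 highest and the 12 lowest cells side by side and a bar with whiskers for the mean and SD of each. The high cells form a narrow band for Mcm3 (7.69 to 8.95) and a wide one, with 1 cell at 0, for Skp2 and Exo1, and the low cells reach down to 0 for every gene shown except Pcna (lowest 6.88).

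At the replication fork, 33 genes were measured, 32 tested, and 13 called higher and none lower; the median difference was 1.77. Rpa2, a subunit of the protein that coats single-stranded DNA, was the only tested gene whose ends did not overlap (0.0102%). It ran from 6.88 to 8.65 in the high cells (median 7.96) and from 0 to 6.71 in the low cells (median 5.49). No tested gene was lower with no overlap (0%). Pcna, the sliding clamp, was detected in every cell: it ran from 9.29 to 10.89 in the high cells (median 9.99) and from 6.88 to 9.81 in the low ones (median 8.43), a difference of 1.60. For Pcna the difference is one of amount, not of detection.

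Other fork genes were closer to on or off at the 2 ends. Pole2, a subunit of the leading-strand polymerase, ran from 4.94 to 7.03 in the high cells and was above 0 in 4 of 12 low cells, with 1 low cell at 6.37. Atad5, which unloads PCNA, was above 0 in 11 high and 3 low cells (5.36 ± 2.11 and 0.81 ± 1.75). Fen1, the flap nuclease of Okazaki fragment maturation, was above 0 in 11 high and 6 low cells (5.84 ± 1.99 and 1.72 ± 2.08). Chaf1b, a subunit of the histone chaperone that assembles new nucleosomes, had medians of 7.70 and 5.68. The catalytic subunit gene Pole (difference 3.06), the clamp loader genes Rfc1 (2.21) and Rfc3 (3.32), the primase gene Prim1 (2.47) and the ligase gene Lig1 (1.77) were called too. Rnaseh2a, which removes ribonucleotides from DNA, was the flattest member at 7.35 ± 0.53 and 7.25 ± 0.69.

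For nucleotide synthesis, 7 of 26 measured and tested genes were called higher and none lower, with a median difference of 1.15. Dck, the deoxycytidine kinase of the salvage route, had medians of 6.52 and 2.59. Rrm2, the regulated subunit of ribonucleotide reductase, ran from 8.004 to 10.17 in the high cells (median 9.32) and from 0 to 10.78 in the low ones (median 7.54). The cell with the most Rrm2 of the 24 was thus a low cell. The purine genes Ppat (2.75) and Gart (1.94), the pyrimidine gene Umps (2.53) and the nucleoside transporter gene Slc29a1 (2.03) were called as well. Tyms, thymidylate synthase, was close to level at 8.34 ± 0.61 and 7.92 ± 0.75, and Tk1, thymidine kinase, at 8.04 ± 0.46 and 7.22 ± 2.42. Rrm1, the large reductase subunit, differed by 2.10 with a pair share of 0.708 and was not called. Rrm2b, the alternative small subunit, had the smallest difference, -0.23.

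Among 33 measured cyclins, kinases, inhibitors and E2F and Rb family genes, 30 were tested, 7 were called higher and none lower, with a median difference of 1.05. Ccne1, the other cyclin E, ran from 2.24 to 7.42 in the high cells (median 6.16) and was above 0 in 2 of 12 low cells, of which 1 reached 6.62. Skp2, an F-box protein that marks the inhibitor p27 for destruction, was above 0 in 11 high and 3 low cells. Cdc25a, the phosphatase that activates the cyclin E kinase, was above 0 in 11 and 3 as well, with a difference of 3.17. E2f1 was at 4.81 ± 2.22 and 1.76 ± 2.42, and Tfdp1, its dimer partner, differed by 3.17. Rbl1, the Rb relative p107 (5.85 ± 1.20 and 2.24 ± 2.37), and Mybl2, the B-Myb factor (5.41 ± 2.79 and 2.09 ± 2.64), were called. The D-type cyclin Ccnd1, which acts earlier in G1, was near level at 7.82 ± 0.81 and 7.44 ± 1.43, and so was the repressor-type factor E2f4 with a difference of 0.45. Ccna2, the cyclin of later S phase and G2, differed by 1.03 but with a pair share of 0.479. The kinase inhibitor Cdkn2c had the smallest difference, -1.33, with a pair share of 0.312, and Cdkn1a differed by 2.61 with 0.778; neither met the rule. With the RNA-poor cells taken out of the low end Cdkn2c was called lower (-2.15) and Cdkn1a higher (2.64), and in a ranking without such cells Cdkn2c was called lower (-2.52) and Cdkn1a was not called (1.94).

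Of 41 measured genes of homologous recombination, the Fanconi pathway and the replication checkpoint, 35 were tested and 6 were called higher, none lower, with a median difference of 1.45. Exo1, a nuclease of mismatch repair and end resection, ran from 0 to 7.92 in the high cells (median 6.57) and from 0 to 6.89 in the low cells (median 0.37), where 6 of 12 had it. The ends overlapped, with 1 high cell at 0. The mismatch repair gene Msh6 was called at 6.30 ± 1.24 and 1.88 ± 2.76. Brca1, a recombination and fork protection gene, was above 0 in 10 high and 2 low cells. Slbp, which binds the stem-loop of histone mRNAs, was detected in all 24 cells at 8.93 ± 0.67 and 7.65 ± 0.84. In the list of DNA methylation maintenance and heterochromatin, 2 of 26 tested of 27 measured genes were called, with a median of 0.64. They were Hells, a chromatin remodeller needed for DNA methylation (6.64 to 8.30 in the high cells, median 7.47, and 0 to 6.90 in the low cells, median 5.48), and Hat1, which acetylates new histones (8.47 ± 0.48 and 7.20 ± 0.81). Dnmt1, the maintenance methyltransferase that UHRF1 recruits, differed by 2.11 with a pair share of 0.736 and was not called. Among 22 genes of cullin 4 and related ligases only Skp2 was called, with a list median of 0.06. The ligase core genes Ddb1 (7.17 ± 0.80 and 6.80 ± 1.01) and Cul4a (difference -0.66) were not called. The gene of their adaptor, Dtl, was part of the score, so its own difference was set by the ranking and gives no comparison. None of 13 cohesin genes was called (median 0.58).

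Few clustered histone genes could be tested, and most of those were not called. Of 57 measured clustered histone genes 14 passed the filter and 1 was called, Hist1h2ao, at 7.58 ± 1.52 and 5.42 ± 1.76. The other 43 were above 0 in too few cells to be compared, so the values do not describe histone genes as a whole. How fully the cDNA method captured histone transcripts was not tested, so these values need not track their levels in the cells. Clustered histone genes include near-identical copies among which counts may be split, so the value of a single copy is uncertain. In 11 of the 14 the highest of the 3 means was that of the 26 cells between the ends. The same held for 54 of 61 tested genes of G2 and mitosis, against 9 of 27 in the licensing list and 6 of 32 in the fork list, and 3352 of all 9766 tested genes.

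Genes of G2 and mitosis were spread widely within the low end. The mean over the list ran from 3.42 to 6.74 in the high cells (median 5.90), from 2.90 to 8.21 in the 26 between (median 7.22) and from 1.25 to 8.21 in the low cells (median 5.59). Low cells 3, 31 and 50 had means of 8.21, 8.14 and 7.79, above every high cell, while the RNA-poor low cells 19 and 17 had 1.25 and 1.64, below every high cell, as did low cell 11 (2.95), which was not RNA-poor. Of 65 measured genes 61 were tested and 1 was called higher, none lower, with a median difference of 0.13 that is near the 0.19 of all genes. The called gene was Lbr, the lamin B receptor of the nuclear envelope (8.22 ± 0.92 and 5.38 ± 3.12). Ccnb1, mitotic cyclin B, was at 7.60 ± 1.07 and 7.56 ± 3.79, which sets a narrow high end inside a wide low one. Top2a, the topoisomerase that untangles sister chromatids, differed by 2.61 with a pair share of 0.715, and Hmmr, a spindle protein gene, by -1.61 with 0.306. The cells were then ranked again after the 5 of 50 cells with under 70 gene counts per spike-in count were left out, a choice made after the data were seen. The same 12 cells stood at the high end and 8 of the 12 low cells remained. Over all genes 114 were now called higher (1.12%) and 83 lower (0.817%), and the median difference of all genes was -0.02. Only 81 of the 224 genes called higher and 18 of the 27 called lower in the main comparison were called again. In this ranking 12 of 65 G2 and mitosis genes were called lower and none higher, with a list median of -1.23. The list mean was then 3.42 to 6.74 (median 5.90) in the high cells and 2.95 to 8.21 (median 7.33) in the low cells. Among the 12 were the kinase gene Aurkb (3.40 ± 3.24 and 7.02 ± 2.19), the spindle genes Aspm (0.73 ± 1.72 and 3.94 ± 2.72) and Tpx2 (5.43 ± 2.11 and 7.41 ± 1.66), the survivin gene Birc5 (7.44 ± 2.31 and 9.00 ± 1.18) and Ccnb1 (7.60 ± 1.07 and 9.36 ± 1.42).

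**Figure D4:**
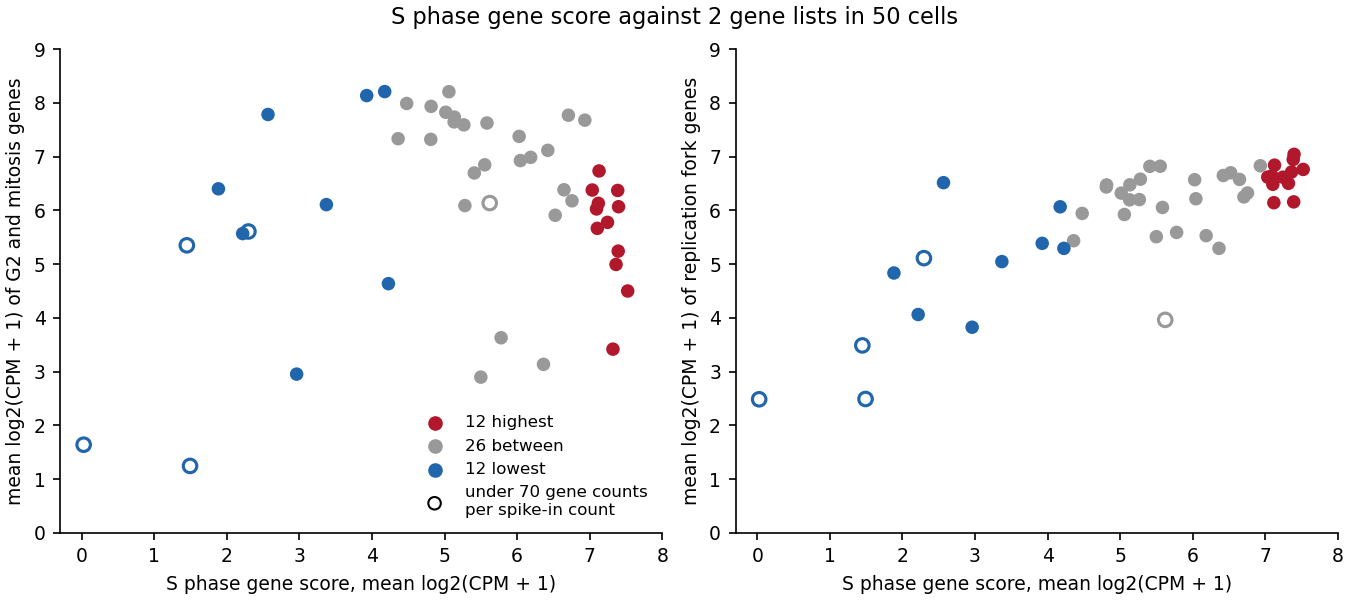
Each point is 1 of the 50 cells, placed by its S phase gene score and its mean log2(CPM + 1) over a gene list. The list is G2 and mitosis on the left and the replication fork on the right. Points are coloured by end, with open circles for cells of under 70 gene counts per spike-in count. Fork means rise with the score (Pearson r 0.788), whereas G2 and mitosis means have their highest median in the middle (7.22) and run from 1.25 to 8.21 among the low cells.

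Replication genes also differed in the same ranking, with smaller list medians. Of 27 licensing genes 9 were called higher, with a median of 1.35, and of 32 fork genes 10, with a median of 1.07. Among the genes described above, Cdt1 (3.53), Clspn (3.32), Mcm3 (1.97), Rpa2 (2.10), Pcna (1.29), Pole2 (3.70), Ccne1 (4.25), Exo1 (2.57) and Hells (2.32) were still called. Of those with a replication or cell cycle role, Gmnn, Mcm10, Mcmbp, Cdc45 (1.34), Gins3 and Wdhd1 were no longer called. The same was true of the fork genes Rfc3 (1.38), Prim1 and Pole, of Dck (2.36), Rrm2 (1.04) and Ppat (1.57), and of Rbl1 (1.89), Mybl2 (1.78) and Tfdp1. Brca1 (2.44), Slbp, Hat1, Lbr (1.11) and Hist1h2ao (1.35) also lost the call. When the 4 RNA-poor cells were only taken out of the low end, leaving 12 against 8, 199 genes were called higher (2.14%) and 106 lower (1.14%). Of these, 137 and 19 were also called with all 24 cells, and the licensing and fork medians were 1.78 and 1.07. The part of RNA content in the remaining differences was not tested.

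Outside the cell cycle lists, ribosome biogenesis held the most calls. Of 25 measured ribosome biogenesis genes 24 were tested and 10 were called higher, with a median difference of 1.43. Nop56, a core protein of methylating small nucleolar particles, was detected in all 24 cells at 9.14 ± 0.43 and 7.68 ± 1.27. Ncl, which encodes the nucleolar protein nucleolin, was at 10.04 ± 0.45 and 9.00 ± 1.07, and Polr1a, the largest subunit of RNA polymerase I, was above 0 in 11 high and 4 low cells. In the ranking without RNA-poor cells 6 of 25 were called, Nop56 among them but not Ncl or Polr1a. Of 18 tested immediate early genes of 21 measured, 4 were called. Egr1, a serum-responsive transcription factor gene, ran from 7.12 to 8.96 in the high cells (median 8.34) and from 0 to 9.03 in the low ones (median 5.90). Junb was at 6.97 ± 0.99 and 4.07 ± 2.90, and Atf3 (2.66) and Zfp36 (2.88) were the others, while Fos, at 9.08 ± 1.12 and 6.78 ± 3.02, was not called. In the ranking without RNA-poor cells 4 were again called, but they were Egr1, Zfp36, Fos and Ier2, without Junb and Atf3. Of 23 cholesterol synthesis genes Sc5d alone was called (8.41 ± 0.42 and 6.91 ± 2.29), and in that ranking Fdps alone. No glycolysis or hypoxia gene of 21 tested was called in either direction (median -0.37), nor any of 13 tested epithelial genes (median -0.01). Dsp, the desmosomal protein gene, came closest with a difference of -2.98 and a pair share of 0.201, and it was called lower with the RNA-poor cells taken out of the low end (-3.32). Of 13 tested mesenchymal genes Cdh2, N-cadherin, was called higher (3.89 ± 2.07 and 1.55 ± 1.84), though not in the ranking without RNA-poor cells (difference 1.04).

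Most listed markers of other cell types were at or near 0 at both ends. Of 11 measured immune markers 7 were at 0 in all 24 cells, and the summed level was 26.3 to 383 CPM in the high cells (median 104) and 7.62 to 265 CPM in the low cells (median 118). Cd14, a lipopolysaccharide co-receptor, was above 0 in 23 of the 24 cells at 6.24 ± 2.17 and 6.45 ± 1.47. Mrc1, a macrophage receptor gene outside these lists, was well above 0 and is described with the genes called lower. For endothelial cells 6 of 10 measured markers were at 0 throughout, for fibroblasts 6 of 10, for acinar cells 5 of 8, for islet cells 1 of 2 and for red blood cells 4 of 8. The median summed level of each of these 5 lists was under 1 CPM at both ends, although single cells reached 104 CPM for the fibroblast list, 97.6 CPM for the acinar list and 56.1 CPM for the endothelial list.

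Several of the largest differences lay outside the replication lists. Of the 224 genes called higher, 52 were in the 10 cell cycle lists, a larger share than the 283 of 9766 tested genes that these lists held. In no list were 156 of the 224. The lists are not complete, since some of the genes named next act in recombination or at the fork. Fignl1, which encodes an ATPase that acts in recombination, ran from 5.25 to 8.50 in the high cells (median 7.62) and was above 0 in 5 of 12 low cells. Rbbp8, the CtIP factor that starts DNA end resection, ran from 5.20 to 7.69 (median 6.18) and was also above 0 in 5 low cells. Mms22l, a fork recovery factor that works with TONSL, differed by 4.28, and Tonsl, named after its value was seen, by 3.43. Tcf19, which encodes a PHD finger protein, was at 6.70 ± 0.83 and 2.17 ± 2.93. Fam60a, a component of the SIN3 histone deacetylase complex, was at 7.18 ± 1.06 and 2.50 ± 3.28, and Zfp367, a zinc finger factor gene, was above 0 in 9 high cells and 1 low cell. Zmynd19 (3.97) and Slfn9 (3.83) were also among the 20 largest. In the ranking without RNA-poor cells Fignl1 (2.41) and Zfp367 (2.40) were not called, and Rbbp8 (3.13), Mms22l (2.95), Tcf19 (3.15), Fam60a (4.18), Zmynd19 (3.07) and Slfn9 (2.47) were.

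The 27 genes called lower held no member of the cell cycle lists, and their differences ran from -1.02 to -3.38 (median -2.05). Ginm1, which encodes a membrane glycoprotein, ran from 0 to 7.08 in the high cells (median 4.75) and from 5.94 to 7.93 in the low cells (median 6.60), where it was never 0. Mrc1, the mannose receptor gene, better known from macrophages, ran from 0 to 6.18 (median 3.67) against 4.12 to 7.66 (median 6.47). Sec16b, which acts at endoplasmic reticulum exit sites, was above 0 in 2 high and 9 low cells. Pxn, the focal adhesion protein paxillin, was above 0 in 5 and 10, and the laminin receptor subunit Itga6 was at 5.66 ± 0.99 and 7.27 ± 1.37. The other genes of the 15 largest negative differences were Rreb1 (-2.56), Ppp3cb (-2.47), Spin1 (-2.40), Nagk (-2.39), Hmha1 (-2.37), St3gal1 (-2.26), Sp3os (-2.17), Ttll7 (-2.12), Rnase4 (-2.12), Snhg20 (-2.05) and Atraid (-1.85). Without the RNA-poor cells in the ranking Mrc1 (-3.10), Ginm1 (-2.68), Sec16b (-3.70) and Itga6 (-1.43) were again called lower, as were all the others except Hmha1 (-2.02), Sp3os (-1.31), Ttll7 (-1.78) and Atraid (-1.71).

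Across all 50 cells the genes most like the score, among those above 0 in at least 25 cells, were Cdt1 with a Pearson r of 0.79, Fignl1 and Pcna with 0.76, Rpa2 and Atad2 with 0.74, Hells with 0.73, Mcm3, Clspn and Rfc3 with 0.70 and Msh6 with 0.69. These values describe cells that share a culture and differ in depth, and the 24 end cells are among them. The lowest were Cox6a1 (-0.51), Itga6 and Trappc1 (-0.50), and Akap9 and Slc8b1 (-0.48). By list, the mean level followed the score with r of 0.789 for licensing, 0.788 for the fork, 0.746 for nucleotide synthesis, 0.738 for repair and 0.736 for ribosome biogenesis. In the same order Spearman rho was 0.614, 0.710, 0.671, 0.514 and 0.714, so the order of the lists differed by rank. For G2 and mitosis r was 0.206 with a Spearman rho of -0.139, so even the sign differed between the measures. The number of detected genes had r of 0.352 and rho of 0.114 with the score, and gene counts per spike-in count had 0.227 and 0.125.

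The E2F words printed in the promoters above were present in a larger share of the promoters of genes called higher than of all tested genes. They occurred in 34 of 176 genes called higher with a promoter in the table (19.3%), in 368 of 7535 tested genes (4.88%) and in 704 of all 27025 genes of the table (2.61%). They occurred in none of 21 genes called lower. By list they occurred in 10 of 21 licensing promoters (47.6%), 8 of 26 fork promoters (30.8%), 7 of 24 promoters of the cyclin and E2F list (29.2%), 1 of 23 nucleotide synthesis promoters (4.35%) and 3 of 53 G2 and mitosis promoters (5.66%). The word TTTGAA, a form of the CHR element searched on both strands, had the other pattern: 36 of 53 G2 and mitosis promoters (67.9%) held it, against 13.1% of genes called higher and 14.5% of tested genes. CCAAT was in 75.5% of the G2 and mitosis promoters, 46.6% of those of genes called higher and 43.6% of those tested. A match describes the letters of the window and not a bound factor.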

How the data were processed

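The 62 libraries hold 1 cell each of 1 culture and form 1 group by the labels. Per the submitters' processing notes, the authors used kallisto and mouse build mm9, and the deposited table gives 1 estimated count per gene and library. How transcripts were joined into genes, the kallisto version and the annotation were not given in the sources used here. The table had 19177 rows, of which 65 were ERCC spike-ins and 19112 genes; 66.2% of the values above 0 were whole within 1e-06. Symbols altered by table software were restored for 1092 genes, and 79 stayed unmatched. All columns belonged to a sample.

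Library sizes held gene rows only. Counts were kept unrounded, scaled to CPM and taken as log2(CPM + 1). The spike-in share was 0.190 to 1.83% in the 50 libraries kept and 22.3 to 97.2% in the 12 left out. The 6 scored genes were left out of all counts of genes. No count model was fitted, since cells of 1 culture are not replicates; the comparison gives differences of means, pair shares and the spread over cells. A value of 0 in a cell is a transcript not detected in that library, and the reason for non-detection was not tested. With the 24 libraries thinned to the lowest gene counts among them, 221 genes were called higher, 198 of them also in the main comparison. No doublet caller was run. Among the 24 cells no pair of libraries was identical, and the highest Pearson r of a pair was 0.738. The script was tested on simulated data.

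The score, its 6 genes and the 23 gene lists (17 of programs and 6 of other cell types) were chosen with earlier results of these data known. Named genes were, from each of 10 cell cycle lists, the 4 largest differences and the smallest; from each other program list, the largest and the smallest; the 20 largest positive and 15 largest negative differences among called genes; and the 10 highest and 5 lowest r with the score. Other genes in the text were chosen after their values were seen, and a few that the rule takes are not described. Promoters are RefSeq sequences of GRCm38.p6, matched by symbol to 7535 of the 9766 tested genes. Alternatives changed the pseudocount, scaling, depth, filter, number of cells per end, score and libraries. Python 3.11.15, numpy 2.4.6 and pandas 2.3.3 were used.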

Additional observations from a re-analysis of the deposited data

Results flagged for a closer look

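Among the 12 libraries left out for a spike-in share of 20% or more, 8 held more than 3 estimated counts summed over the 6 scored genes. The sum was as low as 3.03, in library 53, so passing this cutoff does not establish that any of the 6 genes was expressed. The 12 libraries were in no comparison. Library 43 had a score of 5.86, inside the range of the 26 cells between the ends, with 6 of the 6 genes above 0, 9041 detected genes and a spike-in share of 71.1%. Library 8 scored 4.004 with 4 of the 6 genes above 0, and the other 10 had at most 2 of the 6.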

How the results depend on the processing

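The count of genes called higher, 224, became 370 with scaling to spike-in counts, 401 with 8 and 126 with 16 cells per end, and 1983 by size alone. It was 439 of 6212 tested genes in the 13 cells of label numbers 1 to 48, and 307 of 5175 in the 11 cells of 49 to 96. The label numbers are a possible batch, given by the sample numbers of the description labels and not by library number. With 8 cells per end 7537 genes were tested and with 16 cells per end 10945, against 9766 in the main comparison. The numbers of cells and tested genes thus differed, so these counts and list medians are not directly comparable with the main ones. The count called lower, 27, became 8 with scaling to spike-in counts, 85 with 8 and 17 with 16 cells per end, 70 with detected genes regressed out of the score, 544 by size alone, 14 with a difference of at least 2, and 162 and 222 within the label ranges. Ranking without RNA-poor cells, chosen after seeing the data, gave 114 higher and 83 lower; leaving them out of the low end alone gave 106 lower. Without single cells the counts were 201 to 269 higher and 26 to 49 lower. The lower count passed 1.5 times its value without high cell 38 (42) and without low cell 3 (44), 32 (45) or 17 (49). The licensing median, 2.29, was 1.93 to 2.43 without single cells, 2.72 within label numbers 1 to 48 and 1.17 within 49 to 96. The fork median, 1.77, was 1.58 to 1.90 without single cells, 1.73 within 1 to 48 and 0.854 within 49 to 96.

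The G2 and mitosis median, 0.13, changed sign with a pseudocount of 10 (-0.068), 16 cells per end (-0.13), a score without Ccne2 (-0.25) or Mcm5 (-0.11), detected genes regressed out (-0.15), label numbers 49 to 96 (-0.77), the RNA-poor cells left out of the low end (-0.75) and the ranking without them (-1.23). It rose to 1.32 within label numbers 1 to 48, 0.84 with 8 cells per end and 0.79 with a score of other replication genes. The values of the label ranges and of 8 cells per end rest on fewer cells and fewer tested genes, as given above. Without single cells the G2 and mitosis median was -0.28 to 0.54, below 0 without low cell 19 (-0.28) or 17 (-0.18); the cause was not tested. Of the values of the 96 named genes under other settings, 22 moved by more than the SD, 1895 did not and none reversed; all 2304 values without single cells kept within it. A score of other replication genes shared 8 high and 10 low cells. No paired analysis was possible because all libraries form 1 group. Cells of 1 culture and low detection limit all values: a gene at 0 was not detected in that library.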
